A study of Rattus norvegicus with 24 samples.

Results

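Granzymes are serine proteases that cytotoxic T cells and natural killer (NK) cells store in secretory granules together with perforin, a protein that forms pores in membranes. When such a cell meets its target the granules are released into the contact zone, perforin lets the granzymes into the target cell, and the granzymes cleave substrates there that lead to its death. Granule killing by donor lymphocytes is one of the known routes of tissue damage in graft-versus-host disease, in which the skin is a main target organ. The genes followed here are Gzma, Gzmb, Gzmc, Gzmk and Gzmm, which encode granzymes, Prf1, which encodes perforin, and Nkg7, which encodes a protein of the granule membrane. They were chosen by gene symbol, from all probes of the array that carry one of these names, and make up 8 probes of 8453 and 7 genes of 7250. Gzmb had 2 probes and the other genes 1 probe each.

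The samples were paw skin explants of 12 male BN rats aged 15 weeks, which carry the RT1n haplotype. From each rat 1 explant was cultured with lymphocytes of its own strain, named syngeneic, and 1 with lymphocytes of PVG rats (RT1c), named allogeneic. Both kinds of lymphocytes came from spleens and had first been kept for 7 days with irradiated BN splenocytes. They were then left on the skin for 3 days, so the RNA of an explant comes from the skin with its resident immune cells and from added lymphocytes that stayed in it. In such bulk RNA, fewer cells of a type and less RNA of a gene per cell cannot be told apart. Explants that were cultured in medium alone are not analysed here. The 2 RNA samples of a rat were hybridised together on 2 two-colour arrays with the dyes exchanged, which gave 24 arrays on 3 slides with 4 rats each.

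The share of an array's probe spots that stood well above background ran from 78.3% to 99.7% in Cy3 and from 74.8% to 99.9% in Cy5. The array of rat 10 with the allogeneic sample in Cy5 was far brighter than the others, and the ratios of rat 8 correlated least with those of the other rats (median r = 0.17 over all probes, against 0.37 to 0.69 for the others). No spot of the 8 probes was saturated or marked as an outlier on any array. The probes of Gzma, Gzmb, Gzmc, Gzmm, Prf1 and Nkg7 were well above background in both samples on all 24 arrays, and the Gzmk probe was in 21 arrays for the allogeneic and 23 for the syngeneic sample. The number of arrays and rats limits the precision of all values.

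All ratios are given as allogeneic over syngeneic by the dye labels of each array, and their direction is opposite to the one the study reports. The study's methods name a paired dye swap and spell out only the assignment with the allogeneic sample in Cy5. Arrays of one dye orientation correlated with each other between 0.01 and 0.83 in one orientation and between 0.11 and 0.83 in the other. No array was thus negatively correlated with another of its orientation, but an exchange of labels on all arrays would not show in these values. The direction given here therefore rests on the labels alone, and these arrays cannot tell whether it or the study's is right. Below, allogeneic and syngeneic mean the samples so labelled.

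Gzmc, Gzmb, Gzma and Nkg7 were lower in the allogeneic explants, and each of them was lower in 12 of 12 rats. Gzmk, Gzmm and Prf1 did not pass. In terms of probes, 5 of 8 were called lower and 0 higher at an adjusted p of 0.05 (limma, Benjamini-Hochberg over all 8453 probes; at an unadjusted p below 0.05, 6 probes were lower and 0 higher), where 8.48% of all probes were called lower and 8.78% higher. In terms of genes, 4 of 7 were called lower, where 7.6% of all genes were. The same 5 probes, and 4 genes, were lower in all 12 rats, which held for 3.55% of all probes and 3.26% of all genes. The median log2 ratio of the 7 genes was -0.31, and that of all 7250 genes was 0.01.

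**Figure D1:**
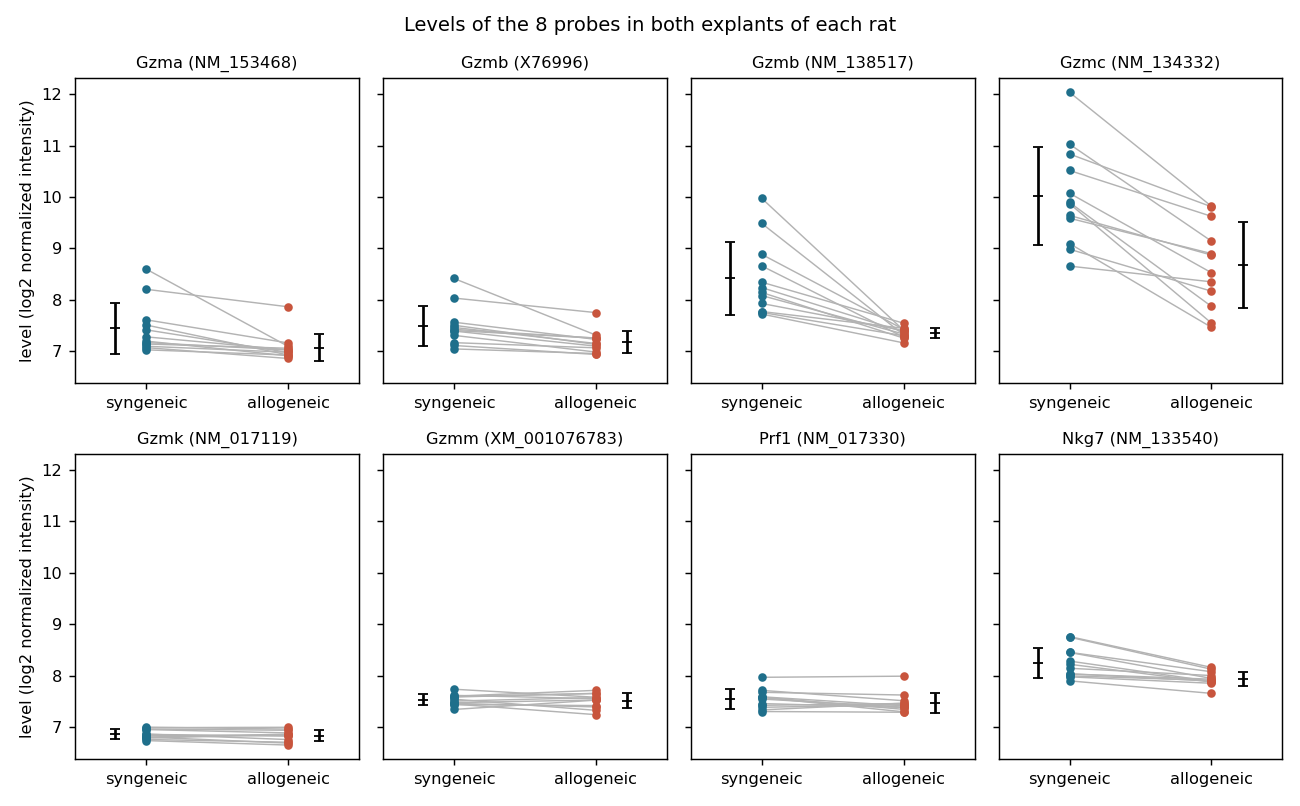
Level of each probe (log2 of the normalized intensity, y axis) in the syngeneic and the allogeneic explant of each of 12 rats; grey lines join the explants of 1 rat and black bars show mean ± SD. The allogeneic levels of the Gzmb NM_138517 probe all lie below the lowest syngeneic level, while the levels of Gzmk and Gzmm in both groups cover nearly the same range.

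Gzmc, a granzyme best known from activated NK cells and T cells, had the largest difference of the 7 genes. Its level in the syngeneic explants was 8.66 at the lowest, 9.89 at the median and 12.04 at the highest, as log2 of the normalized intensity. In the allogeneic explants the level was 7.46 at the lowest, 8.70 at the median and 9.82 at the highest. The groups overlapped, since 7 of the 12 syngeneic explants were above the highest allogeneic one. Within rats the log2 ratio was -1.35 ± 0.68 (SD, n = 12), which is 2.54-fold lower, with a 95% interval of -1.77 to -0.92 and an adjusted p of 0.000409 by limma. The ratio ran from -2.33 in rat 12 to -0.31 in rat 6. It was the 29th lowest log2 ratio of the 8453 probes, and 0.651% of all probes were called lower with a log2 ratio of -1 or below. The mean was -1.23, -1.11 and -1.70 in the rats of slides 1, 2 and 3.

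Gzmb encodes granzyme B, which cleaves after aspartate and activates caspases and Bid in the target cell. Its probe for the reference transcript NM_138517 had a syngeneic level of 7.72 at the lowest, 8.19 at the median and 9.98 at the highest. The allogeneic level was 7.16 at the lowest, 7.36 at the median and 7.55 at the highest. All 12 syngeneic explants were above all 12 allogeneic ones, which held for 10 of 8453 probes (0.118%). The syngeneic explants also spread more, with an SD of 0.72 against 0.10 in the allogeneic explants. The log2 ratio was -1.06 ± 0.70 (SD, n = 12), or 2.09-fold lower, with a 95% interval of -1.51 to -0.62 and an adjusted p of 0.00233 by limma. It ran from -2.57 in rat 2 and -2.17 in rat 11 to -0.33 in rat 7. The slide means were -1.19, -0.76 and -1.24. In the dye orientation with allogeneic RNA in Cy3 the ratio was below 0 in 12 of 12 rats, and in the opposite one in 11 of 12. The exception was the bright array of rat 10, with a log2 ratio of 0.13 against -1.19 on its partner. Without that array the mean of the 12 rats was -1.12.

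The other probe named Gzmb in the array's annotation carries the accession X76996, which the annotation describes as granzyme-like protein III. On the rat build rn3 it lies at chr15:34916380-34916439 on the minus strand, 294.8 kb from the NM_138517 probe at chr15:35211158-35211217, so it reads another place of the granzyme cluster. Its level was 7.04 to 8.42 in the syngeneic explants (median 7.41) and 6.94 to 7.75 in the allogeneic ones (median 7.14). Both ranges overlapped widely, but within each rat the allogeneic explant was lower. The log2 ratio was -0.31 ± 0.27 (SD, n = 12; adjusted p = 0.0113 by limma), from -1.10 in rat 2 to -0.09 in rat 7. With allogeneic RNA in Cy5, taken alone, it was -0.20 and did not pass (adjusted p = 0.068). The mean of both probes, taken as the Gzmb gene, was -0.69 ± 0.47 (adjusted p = 0.00312 over 7250 genes).

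Granzyme genes of this cluster are close copies, so the letters of the probes bear on what each one reads. The probes of Gzmc and of X76996 cover the same stretch of the 2 genes and are shown because they are the most similar pair among the 8 probes, with the bases that are identical at the same place in capitals.
Gzmc NM_134332: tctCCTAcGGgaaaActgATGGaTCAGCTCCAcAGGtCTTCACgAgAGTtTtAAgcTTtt
Gzmb X76996: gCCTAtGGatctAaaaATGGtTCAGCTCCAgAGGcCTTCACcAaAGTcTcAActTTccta
Laid against each other without gaps they shared 38 of 58 bases (65.5%), and the longest run in common was 9 bases. The Gzmc probe lies at chr15:35189221-35189280 on the minus strand of rn3. No member probe shared a run of more than 14 bases out of 60 with a probe of any other gene on the array, read in the same direction. The longest such run was that of the Gzmb NM_138517 probe with LOC691947. Cross-reaction between copies was not tested.

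**Figure D2:**
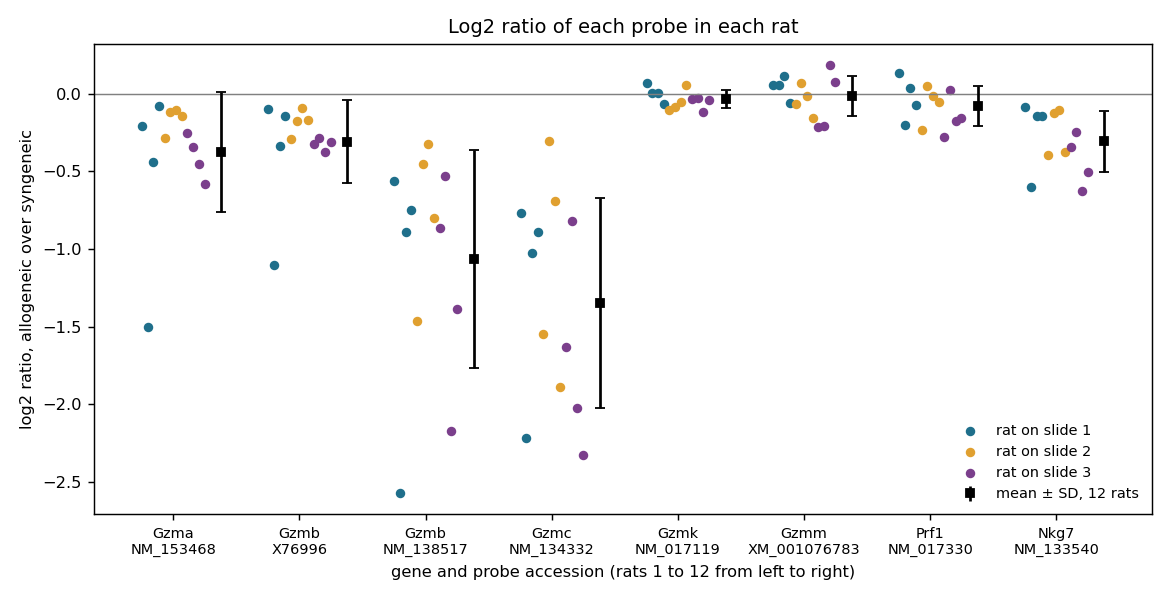
Log2 ratio of allogeneic over syngeneic (y axis) of each probe in each of 12 rats, ordered from rat 1 to rat 12 within a probe and coloured by slide; black squares and bars are mean ± SD. All 12 rats lie below 0 for the Gzma, Gzmb, Gzmc and Nkg7 probes, and rat 2 has the lowest ratio for Gzma and for both Gzmb probes.

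Gzma encodes granzyme A, which cleaves after basic residues and is among the most abundant granzymes of cytotoxic cells. Its level was 7.03 at the lowest, 7.24 at the median and 8.60 at the highest in the syngeneic explants. In the allogeneic explants it was 6.86 at the lowest, 7.00 at the median and 7.86 at the highest. The explants of rats 2 and 10 set the top of the syngeneic range, and these 2 of 12 syngeneic explants were above the highest allogeneic one. The log2 ratio was -0.38 ± 0.39 (SD, n = 12), with an adjusted p of 0.0269 by limma. Rat 2, at -1.50, was far from the other rats, whose ratios reached from -0.58 in rat 12 to -0.08 in rat 4. Without rat 2 the mean was -0.27 and still passed, whereas without rat 11 or without rat 12 the adjusted p was 0.0536 and 0.0582 over genes. The slide means were -0.56, -0.16 and -0.41. The probe lies at chr2:44418398-44418457 on the minus strand of rn3, and the Gzmk probe stands 99.2 kb from it at chr2:44517611-44517670.

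The values of Gzma and of X76996 moved with the signals used and with the constant added to each intensity. With the processed signals of the scanner software the log2 ratio of Gzma was -0.73 and that of X76996 -0.59, against -0.38 and -0.31 with a background correction that adds 50 to each intensity. They were -0.51 and -0.42 with 16 added in place of 50, and -0.36 and -0.31 without background correction. The ratio of the Gzmb NM_138517 probe was then -1.55, and that of Gzmc -1.57. All 4 passed the test with the processed signals as with the added 50.

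Gzmk encodes granzyme K, a protease with a preference like that of granzyme A. Its level lay between 6.73 and 7.00 in the syngeneic explants (median 6.84) and between 6.65 and 6.99 in the allogeneic ones (median 6.84). Those ranges were nearly the same, and the log2 ratio was -0.03 ± 0.06 (SD, n = 12), below 0 in 8 of 12 rats (adjusted p = 0.276 by limma). Its 95% interval was -0.07 to 0.0048. With 21 and 23 of 24 arrays above background, it was the weakest measured of the 8 probes.

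Gzmm encodes granzyme M, which is known mainly from NK cells. Its level was 7.34 to 7.73 in the syngeneic explants (median 7.52) and 7.24 to 7.71 in the allogeneic ones (median 7.54). The ratio was below 0 in 6 of 12 rats and its mean was -0.02 ± 0.13 (SD, n = 12; adjusted p = 0.822 by limma). The sign of this mean turned with the processed signals, with the arrays of one dye orientation, and without rat 9 or rat 10. Its 95% interval was -0.10 to 0.07, and the probe lies at chr7:11526548-11526607 on the minus strand of rn3.

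Prf1 encodes perforin, without which granzymes do not reach the inside of a target cell. Its level was 7.30 at the lowest, 7.56 at the median and 7.97 at the highest in the syngeneic explants. In the allogeneic explants it was 7.29 at the lowest, 7.42 at the median and 7.99 at the highest, and no syngeneic explant was above the highest allogeneic one, that of rat 10. The log2 ratio was -0.08 ± 0.13 (SD, n = 12), below 0 in 8 of 12 rats, with an unadjusted p of 0.049 and an adjusted p of 0.163 by limma. Its 95% interval, -0.16 to 0.0029, leaves out a 2-fold difference in the measured ratio only. The constant added to each intensity draws the ratios of dim probes towards 0, so the interval cannot exclude a 2-fold difference in perforin RNA. With allogeneic RNA in Cy3, taken alone, the mean was -0.13 and passed (adjusted p = 0.0235 by limma), and with it in Cy5 the mean was -0.03. The probe was printed on 2 spots of the array and lies at chr20:28677301-28677360 on the plus strand of rn3. A further probe, TC523502, is annotated as partly similar to mouse perforin but lies on chromosome 1, and had a log2 ratio of -0.16 ± 0.18, below 0 in 9 of 12 rats (adjusted p = 0.0434 by limma).

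Nkg7 encodes a membrane protein of the granules of NK cells and cytotoxic T cells that takes part in their release. Its level was 7.90 at the lowest, 8.18 at the median and 8.76 at the highest in the syngeneic explants. In the allogeneic explants it was 7.65 at the lowest, 7.92 at the median and 8.16 at the highest, and 6 of 12 syngeneic explants were above all allogeneic ones. The log2 ratio was -0.31 ± 0.20 (SD, n = 12), or 1.24-fold lower, with an adjusted p of 0.00199 by limma. It ran from -0.62 in rat 11 to -0.09 in rat 1, and the slide means were -0.24, -0.25 and -0.43. The Nkg7 probe, printed on 2 spots, lies at chr1:93892089-93892148 on the plus strand of rn3. Nkg7 and Gzma therefore had similar ratios at different spreads between rats.

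The sizes of the differences were compared between genes within each rat, in all 21 pairs of the 7 genes, by an exact two-sided permutation of the signs over 12 rats with Benjamini-Hochberg adjustment over the pairs. With Gzmb as the mean of its 2 probes, the order from the lowest log2 ratio upward was Gzmc, Gzmb, Gzma, Nkg7, Prf1, Gzmk and Gzmm, and 17 of the 21 pairs differed. Gzmc was lower than Gzmb in 11 of 12 rats, by 0.66 ± 0.44 (SD; adjusted p = 0.00128 by the exact permutation). Gzmb was lower than Gzma in 12 of 12 rats, by 0.31 ± 0.22 (adjusted p = 0.000732, where the exact p of 0.000488 is the smallest that 12 rats allow). Both comparisons with Gzmb turned on which probe was taken, an alternative added after its values were seen. The NM_138517 probe alone was lower than Gzma by 0.69 ± 0.45 in 12 of 12 rats, and Gzmc was lower than that probe in 9 of 12 rats, which did not pass (difference -0.28 ± 0.44, adjusted p = 0.0621 by the exact permutation over 12 comparisons). With the processed signals Gzmc and the NM_138517 probe were not told apart (difference -0.01 ± 0.64). X76996 alone and Gzma were not told apart (Gzma minus X76996 -0.07 ± 0.14, adjusted p = 0.147 by the same exact permutation), and Gzmc was lower than X76996 in 12 of 12 rats (difference -1.04 ± 0.57). Gzma was lower than Prf1 in 11 of 12 rats (difference -0.30 ± 0.36, adjusted p = 0.00181), and Nkg7 was lower than Prf1 in 12 of 12 rats (difference -0.23 ± 0.13, adjusted p = 0.000732). Gzma and Nkg7 were not told apart with the added 50 (difference -0.07, 95% interval -0.26 to 0.12), but with the processed signals their log2 ratios were -0.73 and -0.39. Gzmk, Gzmm and Prf1 were not told apart either, with differences of -0.02 between Gzmk and Gzmm (95% interval -0.11 to 0.08), 0.05 between Gzmk and Prf1 (-0.03 to 0.12) and 0.06 between Gzmm and Prf1 (-0.04 to 0.17). The added 50 of the background correction draws the ratios of dim probes towards 0, so these differences are between measured ratios, not between amounts of RNA. Leaving out any 1 rat kept all 17 pairs, and the processed signals kept them and added 1. With the NM_138517 probe as Gzmb 16 pairs differed.

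In rat the genes of granzymes B and C and of their near relatives stand side by side on chromosome 15. The array held 7 probes for granzyme genes there, including 4 that do not carry a symbol of the 7 genes. In the order of rn3 the log2 ratio was 0.01 ± 0.05 for LOC681840, annotated as similar to granzyme N, and -0.15 ± 0.18 for Gzmg, named Gzmf in the current RefSeq annotation (adjusted p = 0.678 and 0.0568 by limma). It was -0.33 ± 0.32 for RGD1561819, annotated as similar to granzyme B (adjusted p = 0.0205) and -0.56 ± 0.41 for XM_224226, annotated as similar to granzyme C (adjusted p = 0.00446), and both were lower in 12 of 12 rats. XM_224226 was above background on 8 of 24 arrays for the allogeneic and on 20 for the syngeneic sample. These probes stood 532.4, 498.4, 423.7 and 178.1 kb from the Gzmb NM_138517 probe, X76996 294.8 kb and Gzmc 21.9 kb. The lowest ratios were thus those of the 2 genes at one end of the cluster. Neighbouring genes that are no granzymes did not pass: Ctsg, which encodes cathepsin G, had 0.05 ± 0.09 at 573 kb on one side, and Cenpj had 0.12 ± 0.61 at 292.2 kb and RGD1305133 0.25 ± 0.81 at 497.3 kb on the other. The order along the chromosome is a description over 7 probes of different brightness.

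**Figure D3:**
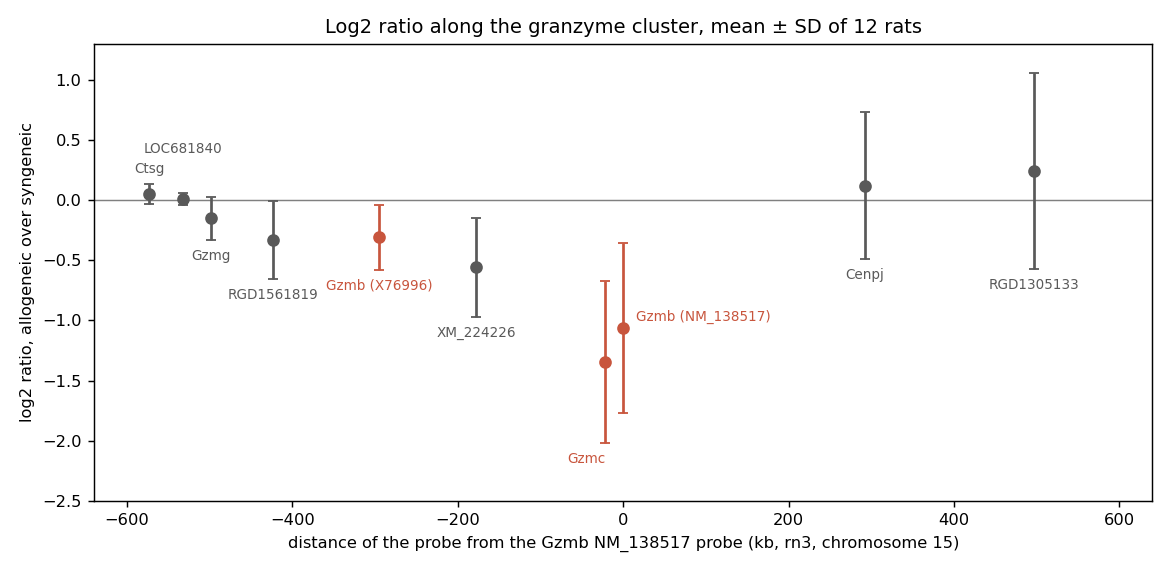
Log2 ratio of allogeneic over syngeneic (y axis, mean ± SD of 12 rats) against the distance of each probe from the Gzmb NM_138517 probe in kb (x axis), on chromosome 15 of rn3; red points are probes named Gzmb or Gzmc. The ratio goes from 0.01 at LOC681840 to -1.35 at Gzmc, and Cenpj and RGD1305133 on the other side lie above 0 with SDs of 0.61 and 0.81.

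The ratios of the genes were then correlated with each other over the 12 rats, in the same 21 pairs, with 100000 permutations and adjustment over the pairs. The points of a pair share the arrays they were read from. In 8 pairs the Pearson correlation passed the threshold. The share of all gene pairs of the array that would pass was not counted, so the 8 have no background beside them. Nkg7 correlated with Gzmc at r = 0.922 (Spearman rho = 0.902, permutation p = 6e-05, adjusted p = 0.00063) and with Gzmb at r = 0.859 (rho = 0.902, permutation p = 5e-05, adjusted p = 0.00063). Without the 2 rats farthest from the median of the granzyme these were r = 0.940 and r = 0.804. Gzma correlated with Gzmb at r = 0.889 (rho = 0.797, permutation p = 0.00094, adjusted p = 0.00604) and, without rats 2 and 12, at 0.705. Gzmb stands here for the mean of its 2 probes. By single probes, Gzma had r = 0.813 with NM_138517 and 0.971 with X76996. Gzmb correlated with Gzmc at r = 0.760 (rho = 0.874, adjusted p = 0.00604 by permutation), and at 0.776 without rats 2 and 11. Gzma correlated with Gzmc at r = 0.601 and with Nkg7 at r = 0.653 (rho = 0.720 and 0.748, adjusted p = 0.0352 and 0.0221 by permutation), which fell to 0.430 and 0.518 without rats 2 and 12, so these relations rest in part on those rats. Prf1 correlated with Gzmc at r = 0.742 and with Nkg7 at r = 0.754 (rho = 0.699 and 0.741, adjusted p = 0.0238 and 0.0221 by permutation), and at 0.723 and 0.746 without the farthest rats. Prf1, whose mean ratio did not pass, thus varied over rats with Gzmc and Nkg7. The rho of all 8 pairs passed as well, with adjusted permutation p-values of 0.00231 to 0.0326, and Prf1 with Gzmb passed by rho alone (r = 0.627, adjusted p = 0.0535; rho = 0.706, adjusted p = 0.0326; both by permutation). Gzmk and Gzmm correlated with no other member past the threshold (r between -0.38 and 0.43). After each slide's mean was taken off, the 8 correlations lay between 0.661 and 0.954. Without rat 2, 3 pairs passed and without rat 1, 5 did.

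**Figure D4:**
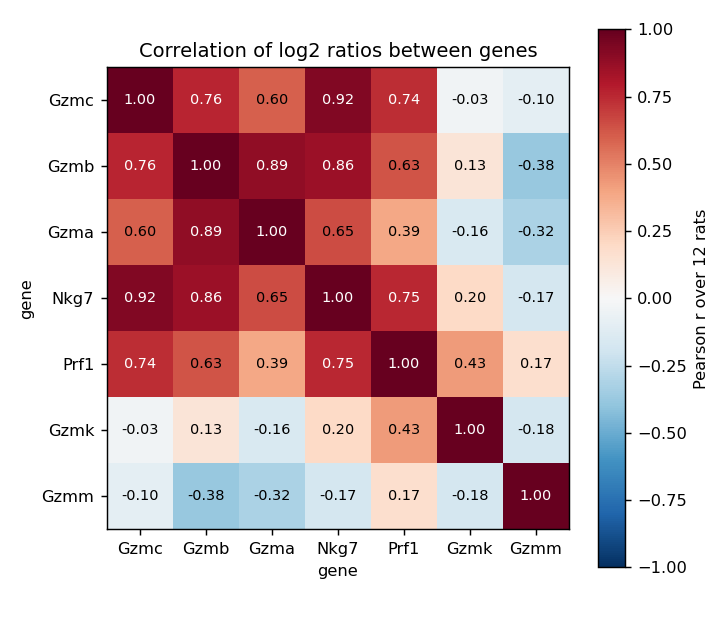
Pearson correlation of the log2 ratios of each pair of genes over 12 rats, on a colour scale from -1 to 1 with the value in each cell. Gzmc, Gzmb, Gzma and Nkg7 correlate with each other between 0.60 and 0.92, and Gzmk and Gzmm correlate with other genes between -0.38 and 0.43.

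Among 6330 other genes that 12 or more arrays placed well above background for one sample or the other, those whose ratios followed a member most closely over the 12 rats were listed by Pearson's r, as a description. For the Gzmb NM_138517 probe they were XM_224226 (0.967), RGD1561819 (0.935), Nkg7 (0.891), Gbp4 (0.849) and Gzma (0.813), and without rats 2 and 11 the first 2 were still at 0.914 and 0.909. XM_224226 entered through the syngeneic sample, since it was above background on 8 arrays for the allogeneic one. For Gzmc they were Nkg7 (0.922), Mast2 (0.865), Gzmf (0.857), Gfi1 (0.845) and Il2rb (0.845). Nkg7 was followed by Gzmc (0.922), Tbx21 (0.917), Ptpn5 (0.889), Gzmb (0.859) and Cd72 (0.858). For Gzma they were RGD1561819 (0.892), Gzmb (0.889), Rasgrf2 (0.853), XM_224226 (0.838) and Fgf23 (0.806), and without rats 2 and 12 only Gzmb stayed above 0.5, at 0.705. For X76996 they were Gzma (0.971), RGD1561819 (0.924), XM_224226 (0.850), Rasgrf2 (0.843) and Gbx2 (0.796), and without rats 2 and 7 they were at 0.779, 0.639, 0.517, 0.593 and 0.521. Of the 5 genes nearest to Prf1 (L22655, Pip4k2a, Cd72, Spib and Lax1, 0.869 to 0.877) and to Gzmm (Or5w22, Ecel1, Ceacam4, Sgpl1 and Nkx2-5, 0.860 to 0.907), none was a granzyme.

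The stretch before the start of each gene is given because several of the genes varied together. In the 250 bases before the RefSeq start (build GRCr8), all 7 genes held the core letters TGTGGT of the Runx factors, counted on both strands, which 14.5% of 33469 promoters in the RefSeq table held. Gzmb and Gzmc had 3 matches each and the other 5 genes 1 each, among them Gzmk, Gzmm and Prf1, which did not pass the test. The windows of Gzmb (chr15:34462470-34462719, minus strand), Gzmc (chr15:34440007-34440256, minus strand) and Prf1 (chr20:29788790-29789039, plus strand) follow, with TGTGGT and its reverse complement in capitals.
Gzmb: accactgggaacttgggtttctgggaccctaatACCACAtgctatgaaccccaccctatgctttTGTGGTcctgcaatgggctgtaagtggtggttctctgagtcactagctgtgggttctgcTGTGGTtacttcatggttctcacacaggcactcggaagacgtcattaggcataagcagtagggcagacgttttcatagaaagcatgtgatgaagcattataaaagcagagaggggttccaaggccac
Gzmc: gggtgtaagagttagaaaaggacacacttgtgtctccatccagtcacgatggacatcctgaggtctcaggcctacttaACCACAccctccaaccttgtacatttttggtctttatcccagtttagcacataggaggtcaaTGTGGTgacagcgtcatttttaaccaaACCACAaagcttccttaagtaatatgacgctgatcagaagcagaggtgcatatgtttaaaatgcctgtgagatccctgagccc
Prf1: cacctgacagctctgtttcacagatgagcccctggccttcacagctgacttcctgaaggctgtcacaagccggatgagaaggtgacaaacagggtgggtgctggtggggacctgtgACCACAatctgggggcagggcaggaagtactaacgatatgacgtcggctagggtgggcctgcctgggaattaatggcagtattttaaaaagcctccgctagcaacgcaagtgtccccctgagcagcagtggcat
The AP-1 letters TGANTCA stood in 1 of the 7 windows, that of Gzmb, against 6.3% of all promoters, and TGACGT, the core of the cyclic AMP response element, in 2, those of Gzmb and Prf1, against 6.9%. The T-box letters GGTGTG stood in 3, those of Gzmc, Gzmk and Gzmm, against 15.4%, and the match in Gzmc overlapped one of its Runx matches. A match is a run of letters and was not tested for binding.

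Other genes of the cytotoxic pathway were described by lists of textbook members, beside 7.6% of all genes called lower and 8.68% called higher. Of 10 measured genes of the granule contents and the exocytosis machinery 3 were lower and 1 higher, with a median log2 ratio of -0.06. Ctsc, whose product cathepsin C activates granzyme precursors, had -0.39 ± 0.32 and was lower in 11 of 12 rats (adjusted p = 0.00898 by limma). Stx11, a syntaxin needed for granule fusion, had -0.15 ± 0.13 and was lower in 12 of 12 rats (adjusted p = 0.0134), and Calr, the chaperone calreticulin, had -0.14 ± 0.16 (adjusted p = 0.0464). Lamp3 was higher by 0.07 ± 0.06 (adjusted p = 0.0235) but above background on 1 array of 24 for each sample. Cst7 and Ctsw, which encode a cystatin and a cathepsin of cytotoxic cells, had -0.08 ± 0.35 and -0.04 ± 0.14 and did not pass.

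Of 25 measured cytokines, receptors and transcription factors known to induce granzymes 5 were lower and 1 higher, with a median of -0.07. The lower ones were Il2rb, the beta chain of the interleukin-2 and interleukin-15 receptors, at -0.63 ± 0.37 (adjusted p = 0.00115 by limma), Il2ra at -0.21 ± 0.20 (0.0203), Il2rg at -0.17 ± 0.13 (0.00672) and Il2 itself at -0.14 ± 0.10 (0.00605), all lower in 12 of 12 rats. The fifth was Tbx21, which encodes T-bet, at -0.07 ± 0.05 and lower in 12 of 12 rats (0.00847). Il2 was above background on 3 arrays of 24 for the allogeneic and 5 for the syngeneic sample, and Tbx21 on 14 and 16. Jak3, a kinase of the same receptors, was higher by 0.12 ± 0.08 (0.00499). Ifng was above background on 2 and 4 arrays, with -0.05 ± 0.07 (0.184).

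Of 21 measured granzyme substrates and genes of the caspase route 1 was lower and 2 higher, with a median of 0.08. Bid, which granzyme B cleaves, had -0.34 ± 0.13 and was lower in 12 of 12 rats (adjusted p = 0.000102 by limma). Anp32a, part of the SET complex that granzyme A attacks, was higher by 0.57 ± 0.39 in 12 of 12 rats (0.00332), and Casp6 by 0.31 ± 0.28 (0.015). Of 10 measured genes of the death ligand route, the other means of killing, 3 were lower with a median of -0.05: Lta, lymphotoxin alpha, at -0.30 ± 0.22, Tnfrsf1b at -0.27 ± 0.17 and Tnf at -0.16 ± 0.10 (adjusted p = 0.00459, 0.00278 and 0.00207). None of the 10 was called higher by limma, and 6 had an unadjusted p below 0.05 in either direction. Of a list of mast cell and neutrophil serine proteases 4 genes were measured, which were Ctsg, Prtn3, Gzmf of the cluster above and Cfd, which encodes complement factor D. None of the 4 passed by limma, and 2 had an unadjusted p below 0.05.

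Markers of the cells that make granzymes, and of other cells, were also lower in part. Over all genes, to be set beside each marker list, 7.6% were called lower and 8.68% higher. Of 17 measured T cell markers 6 were lower and none higher by limma (9 had an unadjusted p below 0.05 in either direction), with a median of -0.11. They were Cd5 (-0.97 ± 0.84), Lck (-0.70 ± 0.51), Cd6 (-0.63 ± 0.49), Cd8b (-0.49 ± 0.23), Cd8a (-0.32 ± 0.22) and Cd2 (-0.26 ± 0.24). The chains of the CD3 complex did not pass: Cd3e had -0.11 ± 0.15, Cd3d -0.16 ± 0.38 and Cd3g -0.40 ± 0.85. Of 16 NK cell markers 3 were lower and 1 higher, with a median of -0.01: Tyrobp, which myeloid cells use as well, had -0.71 ± 0.32, Ccl5 -0.23 ± 0.16 and Klrb1a -0.12 ± 0.11, and Itga2 was higher by 0.28 ± 0.31. The NK receptors Ncr1 and Klrd1 had -0.01 ± 0.07 and -0.09 ± 0.15 and did not pass.

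The summed intensity of the 17 T cell markers was 5139 to 12330 in the syngeneic explants (median 6146) and 4557 to 9928 in the allogeneic ones (median 5239), and it was lower in 9 of 12 rats. That of the 16 NK cell markers was 4616 to 9492 (median 5211) against 4337 to 7671 (median 4568), lower in 12 of 12 rats. A sum is carried by its brightest probes: of the 16 NK cell markers 12 were not called, and their median log2 ratio was -0.01. The summed intensity of 15 macrophage and monocyte markers was 42190 to 104100 (median 76720) against 35670 to 66030 (median 56040), also lower in 12 of 12 rats. In that list 7 genes were lower and 2 higher, with Trem2 at -1.69 ± 0.67, Ctss at -1.40 ± 0.61, Aif1 at -1.27 ± 0.50, Fcgr2b at -0.99 ± 0.86, Itgam at -0.60 ± 0.40 and a probe named Itgax, whose accession RefSeq gives to Itgad, at -0.57 ± 0.41, while C1qa and C1qc were higher by 0.21 ± 0.21 and 0.19 ± 0.21. The part of T cells, NK cells or macrophages in the ratios of the granule genes was not tested.

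Of 8 B cell markers Fcer2 passed, at 0.12 ± 0.07, and of 6 neutrophil markers Cxcr2, at 0.15 ± 0.14. None of 4 mast cell markers passed by limma, and 0 had an unadjusted p below 0.05. Of keratinocytes, the main cells of the epidermis, 3 markers were measured, all above background on 24 arrays. Their summed intensity was 31240 to 128800 in the syngeneic and 84210 to 166300 in the allogeneic explants, lower in 1 of 12 rats, and Perp was higher by 0.69 ± 0.74 (adjusted p = 0.0332 by limma).

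**Figure D5:**
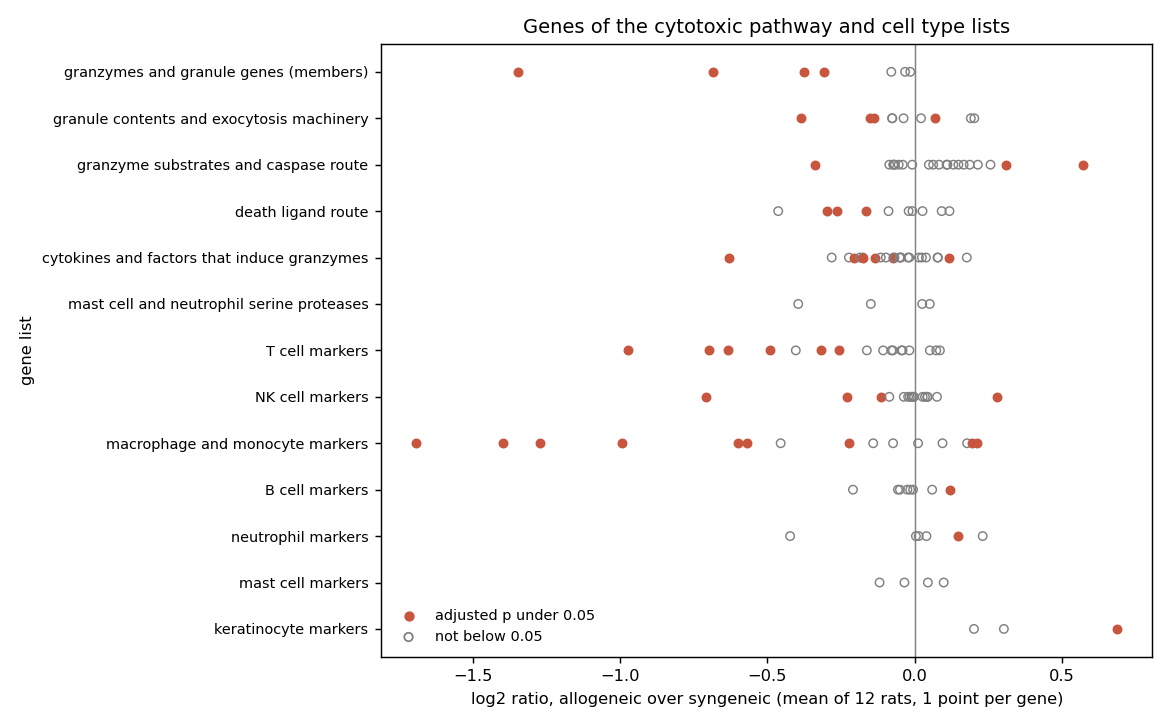
Log2 ratio of allogeneic over syngeneic (x axis, mean of 12 rats) of each measured gene of the 13 lists shown (y axis), 1 point per gene; filled points have an adjusted p under 0.05. Gzmc lies at -1.35, beyond all points other than those of Trem2 at -1.69 and Ctss at -1.40, and the 3 member genes that did not pass lie between -0.08 and -0.02.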

How the data were processed

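RNA of skin explants was measured on 24 two-colour Agilent arrays of 60-base probes. The deposited scanner files hold, per the file headers, the mean and background intensity of each spot as read by Feature Extraction 9.5.1.1, and the coordinates of the probes on rn3. The series table holds log2 ratios that the authors normalized, with columns whose medians lay between -0.03 and 0.02. Its columns followed the ratios turned by the dye labels (r between 0.707 and 0.956). That direction comes from the labels, the authors' background handling and exact scale remain unknown, and the table served as an alternative. The submitters' processing notes name limma. The labels name a BD Atlas SMART amplification kit and the methods a labelling kit of Agilent.

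Intensities were corrected with normexp (offset 50) and loess in limma 3.58.1 (R 4.3.3), without 536 control spots and outlier spots, of 15744. Spots of a probe were averaged, then the 2 dye-swapped arrays of a rat, so that n is 12 rats. The log2 ratio was tested against 0 with limma, with Benjamini-Hochberg adjustment over 8453 probes or 7250 genes. A gene is the mean of its probes, under its RefSeq symbol where the accession matched (4685 probes). The limma fit and the pair tests were checked on simulated data. Pairs of genes were compared with scipy 1.17.1.

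The genes and lists were chosen with earlier results of these data known. Named were all members, up to 6 genes of each list with the largest called ratios, and the 5 genes nearest to each member over rats. The genes nearest to Gzmk and 1 further list are not reported here. Other genes named beside them, such as the CD3 chains, Ncr1, Klrd1, Cst7, Ctsw and Ifng, were added after their values were seen. The methods name a mixed-effects ANOVA, used here as an alternative.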

Additional observations from a re-analysis of the deposited data

How the results depend on the processing

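Gzmb, Gzmc and Nkg7 kept their direction and passed the test under every alternative run. Gzma did so except without single rats, where its log2 ratio lay between -0.40 and -0.27 and missed the threshold without rat 11 and without rat 12. Gzmm, which never passed, turned to 0.0081 with the processed signals and to 0.0157 in the dye orientation with allogeneic RNA in Cy5, and lay between -0.0332 and 0.0031 without single rats. Prf1 passed at -0.13 in the opposite orientation (adjusted p = 0.0243 by limma). The count of member probes called stayed between 4 and 6 of 8. The count of all probes called was 1459, and 2659 or 2500 on the arrays of one dye orientation alone. The numbers pair the explants because same-numbered samples are the same rat, and both explants lie on each array. With 24 arrays, a dye term and the rat as a replicate block, 28 genes of the pathway lists were called in place of 17, and no call of a member changed. Of the pairs of members, 3 to 9 were called correlated without single rats, against 8. With the processed signals 59.2% of the called probes were higher, against 50.9%. The causes were not tested. With the NM_138517 probe as Gzmb 16 pairs differed in place of 17 and 9 were called correlated. Alternatives for Gzmk, Gzmm, Prf1 and single probes, and Gzmb by the NM_138517 probe alone (-1.06), were chosen after seeing the data. Signal over background limits Gzmk, Il2, Ifng and XM_224226 most.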
